A study of Mus musculus with 15 samples.

Results

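The 10 genes described here make up the core of the MHC class I antigen presentation pathway, and they were read in the tables of a study of mouse 4T1 mammary carcinoma cells. They were chosen by symbol and joined across tables by Ensembl identifier without its version. All 10 were found in each of the 4 tables of differential expression, which together hold 14583 genes, 12686 of them in every table. The genes are H2-K1, H2-D1 and B2m for the class I molecule, Tap1, Tap2 and Tapbp for peptide transport and loading, Psmb8, Psmb9 and Psmb10 for the immunoproteasome, and Nlrc5 for their transcription.

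RNA was sequenced from 15 samples in 5 groups of 3. The 4T1 line is an established tumour line from the BALB/c strain. In 3 of the groups, cells in 2D culture in medium with 2% serum (FBS) received nuclear expulsion products (NEPs, which the labels name exsporosi), apoptotic debris (apoDBs) or vehicle. The genotype of these recipient cells is Padi4 KO according to the study's text, since the labels do not give it. NEPs are complexes of DNA and protein that dying tumour cells release through the histone-modifying enzyme Padi4. They came from 4T1 iCasp9 Padi4+/+ cells, and apoDBs from 4T1 iCasp9 Padi4 -/- cells. In these donors AP1903 switches on the caspase, and material from 5000 donor cells was added per 500 recipient cells. NEPs and apoDBs therefore differ in the Padi4 genotype of their donor as well as in what was expelled, and these cannot be told apart. The remaining groups were 4T1 spheroids, either Padi4 WT or Padi4 KO, grown for 3 days without attachment and for 7 more days after 75% Matrigel was added. The knockout was made by CRISPR with a plasmid selected by puromycin. The labels do not say whether samples of a group came from separate cultures, so a p-value may measure technical spread alone.

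Each deposited table gives a fold change and a limma p-value per gene. The values of single samples were not analysed here, so the depth is unknown, and no SD, standard error or overlap between groups can be given. A false discovery rate (FDR) was computed from the p-values of each table by the Benjamini-Hochberg method over all of its genes. A gene "rose" or "fell" below if its FDR was below 0.05. The study itself called a gene at an FDR below 0.0001 when its log2 fold change was also above 2 in size. The targeted gene, Padi4, was 4.18-fold higher in WT than in KO spheroids (FDR = 0.000542). In 2D culture its RNA was 1.11-fold higher with NEPs than with vehicle (FDR = 0.109) and 1.80-fold lower with apoDBs than with vehicle (FDR = 0.000324). Compared directly, Padi4 RNA was 2.01-fold higher with NEPs than with apoDBs (FDR = 1.19e-06). The epithelial markers Epcam, Krt8, Krt18, Krt14 and Cdh1 are listed in every table. In WT against KO spheroids, 3 of these 5 fell and 2 rose, beside 26.1% and 21.7% of all genes. Of 10 haematopoietic markers, those in no table include Ptprc, Cd3e, Itgam, Lyz2, Adgre1 and Itgax. The endothelial markers Pecam1 and Cdh5 are also in none. The haematopoietic markers Cd68, S100a8 and S100a9 were found, and all rose with NEPs against vehicle, beside 24.3% of all genes. The stromal genes Col1a1 and Pdgfrb were found in the spheroid comparison alone. The values of these markers are given below.

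MHC class I molecules show peptides from inside the cell to CD8 T cells. The proteasome cuts proteins into peptides, the TAP transporter carries them into the endoplasmic reticulum, and the loading complex places them on a heavy chain bound to beta-2-microglobulin. Immunoproteasome subunits replace the constitutive catalytic subunits when cells see interferon, and Nlrc5 is a transactivator that is recruited to class I promoters by the RFX, CREB/ATF and NF-Y factors. Loss of class I is a known route by which tumour cells escape T cells, while natural killer cells respond to its absence.

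Of the 10 genes, 7 lie on chromosome 17, in the MHC. In GENCODE M21 (GRCm38), Tapbp spans chr17:33915899-33929292 on the plus strand and H2-K1 spans chr17:33996017-34000347 on the minus strand. Psmb9 (chr17:34181987-34187764, minus), Tap1 (chr17:34187553-34197225, plus), Psmb8 (chr17:34197721-34201454, plus) and Tap2 (chr17:34203527-34216321, plus) form a cluster. H2-D1 spans chr17:35262730-35267499 on the plus strand. Outside the MHC, B2m spans chr2:122147686-122153083, Nlrc5 chr8:94434356-94527272 (both plus) and Psmb10 chr8:105935735-105938444 (minus). The submitters' processing notes name mm9, but the versions of 93.6% to 93.7% of the identifiers in the tables are those of GENCODE M21, and the tables hold no coordinates. Tap1 and Psmb9 overlap by 212 bases on opposite strands, and 8 of the 10 genes overlap some annotated gene. Whether counting used strand is not given in the sources used here, so reads in these stretches may belong to either gene.

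Promoter windows of 300 bases, from 250 before to 50 after a RefSeq start site (GRCm38.p6), were found for 8 of the 10 genes, and none for Tap2 and Nlrc5. These windows were searched on both strands for 5 short motifs, which did not overlap each other. The motifs were a core of the interferon-stimulated response element, GAAANNGAA or GAANNGAAA (ISRE core), the gamma-activated site TTCNNNGAA (GAS), the NF-kB site GGGNNTTCC (kB), the CREB/ATF core TGACG and the NF-Y box CCAAT. The bases before the start site are shown for the promoters of the class I heavy chains, of B2m and of the shared Tap1 and Psmb9 promoter. The windows of Tapbp, Psmb8 and Psmb10, which also rose in cells with NEPs, are described below but not shown. Capitals mark motif matches on either strand. RefSeq has another start site for H2-K1, whose window holds the same motifs.
H2-K1 (chr17:34000334-34000583, minus strand): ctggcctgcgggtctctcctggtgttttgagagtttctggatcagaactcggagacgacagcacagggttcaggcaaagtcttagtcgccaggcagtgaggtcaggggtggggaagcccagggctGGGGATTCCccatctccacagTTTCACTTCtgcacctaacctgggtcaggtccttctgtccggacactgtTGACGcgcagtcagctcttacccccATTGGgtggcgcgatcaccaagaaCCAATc
H2-D1 (chr17:35262844-35263093, plus strand): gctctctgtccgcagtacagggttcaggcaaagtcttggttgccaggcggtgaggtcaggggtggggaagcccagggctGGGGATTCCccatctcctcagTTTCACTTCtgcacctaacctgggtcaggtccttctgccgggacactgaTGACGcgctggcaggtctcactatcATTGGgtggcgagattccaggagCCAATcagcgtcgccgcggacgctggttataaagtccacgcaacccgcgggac
B2m (chr2:122147437-122147686, plus strand): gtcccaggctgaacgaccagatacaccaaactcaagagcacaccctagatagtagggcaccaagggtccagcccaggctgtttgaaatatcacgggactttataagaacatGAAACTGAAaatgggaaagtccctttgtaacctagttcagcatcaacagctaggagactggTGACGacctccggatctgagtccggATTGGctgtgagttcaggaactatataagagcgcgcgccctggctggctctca
Tap1 (chr17:34187306-34187555, plus strand): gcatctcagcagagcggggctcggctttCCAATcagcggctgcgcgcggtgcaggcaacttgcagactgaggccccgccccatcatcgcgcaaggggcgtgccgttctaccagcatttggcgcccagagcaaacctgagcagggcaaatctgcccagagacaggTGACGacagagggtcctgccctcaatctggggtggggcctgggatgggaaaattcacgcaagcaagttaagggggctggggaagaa

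The H2-K1 and H2-D1 windows hold the same motifs in the same order. A kB match lies at -125 in H2-K1 and at -171 in H2-D1, counted from the start site, and an ISRE core follows at -104 and -150. The TGACG core is at -55 and -101, followed by CCAAT on either strand. Without gaps, the windows are identical at 180 of 254 compared bases (70.9%). B2m has an ISRE core at -139, a TGACG core at -78 and a CCAAT box at -53, and no kB match. The Tap1 and Psmb9 windows share 275 bases, since these genes start 226 bases apart and are read in opposite directions, and the shared bases hold a TGACG core and a CCAAT box. The Psmb8 window holds a GAS match at -97, the Tapbp window holds 2 CCAAT boxes, and the Psmb10 window holds none of the 5 motifs. Among all 32851 promoter windows, an ISRE core was found in 14.8%, a GAS match in 8.3%, a kB match in 5.82%, TGACG in 20.8% and CCAAT in 37.4%. Of the 8 genes, 3, 1, 2, 5 and 6 had these motifs, in the same order. The second form of the ISRE core was added after the first had been searched, which alone is in 8.56% of windows and, of these genes, in B2m. The sequences are those of the C57BL/6 reference and not of BALB/c, and a match is not evidence of binding.

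The first question was whether NEPs change class I genes in recipient cells. All 10 genes rose in Padi4 KO cells with NEPs compared to vehicle, between 2.37-fold (Psmb10) and 12.3-fold (Psmb8). Of all 13541 genes in this table, 24.3% rose. Each of the 10 was also over 2-fold higher, as were 5.6% of all genes. The median log2 fold change of the 10 was 1.87, while that of all genes was -0.05. The study's limits were passed by 5 of them (B2m, Tap1, Psmb8, Psmb9 and Nlrc5), and by 2.26% of all genes on the higher side.

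Of the 10 genes, the immunoproteasome subunits Psmb8 and Psmb9 had the largest changes with NEPs against vehicle, and the subunit Psmb10 the smallest. Psmb8, which replaces the constitutive subunit Psmb5, rose by 3.62 on the log2 scale (FDR = 1.03e-08), and Psmb9, which replaces Psmb6, by 3.04 (FDR = 3.67e-07). Psmb10, which replaces Psmb7, had a log2 fold change of 1.25 (FDR = 1.66e-05). The constitutive subunits moved far less, with log2 fold changes of 0.27 for Psmb5 (FDR = 0.0227), 0.17 for Psmb6 (FDR = 0.0542) and 0.63 for Psmb7 (FDR = 3.76e-05). The inducible subunit thus exceeded its counterpart by 3.35 for Psmb8, 2.87 for Psmb9 and 0.61 for Psmb10 on the log2 scale. These differences were not tested, since no standard errors were at hand.

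Among the transport genes, Tap1, a chain of the peptide transporter, was 7.40-fold higher with NEPs than with vehicle (FDR = 1.47e-09). Its partner chain Tap2 was 3.20-fold higher (FDR = 3.17e-07). Tapbp encodes tapasin, which holds the transporter and the empty class I molecule together, and was 2.61-fold higher (FDR = 2.34e-07). The subunits of the heterodimer therefore differed in their measured fold. Tap1 stood near Psmb9, while Tap2 and Tapbp stood near the heavy chains.

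Heavy chains had smaller folds than Tap1 or Psmb8. The heavy chains H2-K1 and H2-D1 were 2.62-fold (FDR = 2.9e-06) and 2.87-fold (FDR = 3.64e-07) higher with NEPs. B2m, the light chain that all class I heavy chains share, was 4.15-fold higher (FDR = 2.02e-08). Nlrc5 was 5.32-fold higher (FDR = 6.26e-09). The heavy chains carry a limit of their own. Of the 50-base words in their GENCODE transcripts, 9.63% for H2-K1 and 12.8% for H2-D1 also occur in transcripts of other genes. The single gene that shared most was H2-Q10 for H2-K1 (5.18%) and H2-Q1 for H2-D1 (5.87%). The BALB/c alleles also differ from the C57BL/6 reference, which lacks the BALB/c class I gene H2-L. The folds of the heavy chains are therefore uncertain. For B2m, Psmb9, Psmb10 and Nlrc5 the share of words found in any other gene was 0%, and for the other 4 genes it was at most 2.87%.

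**Figure D1:**
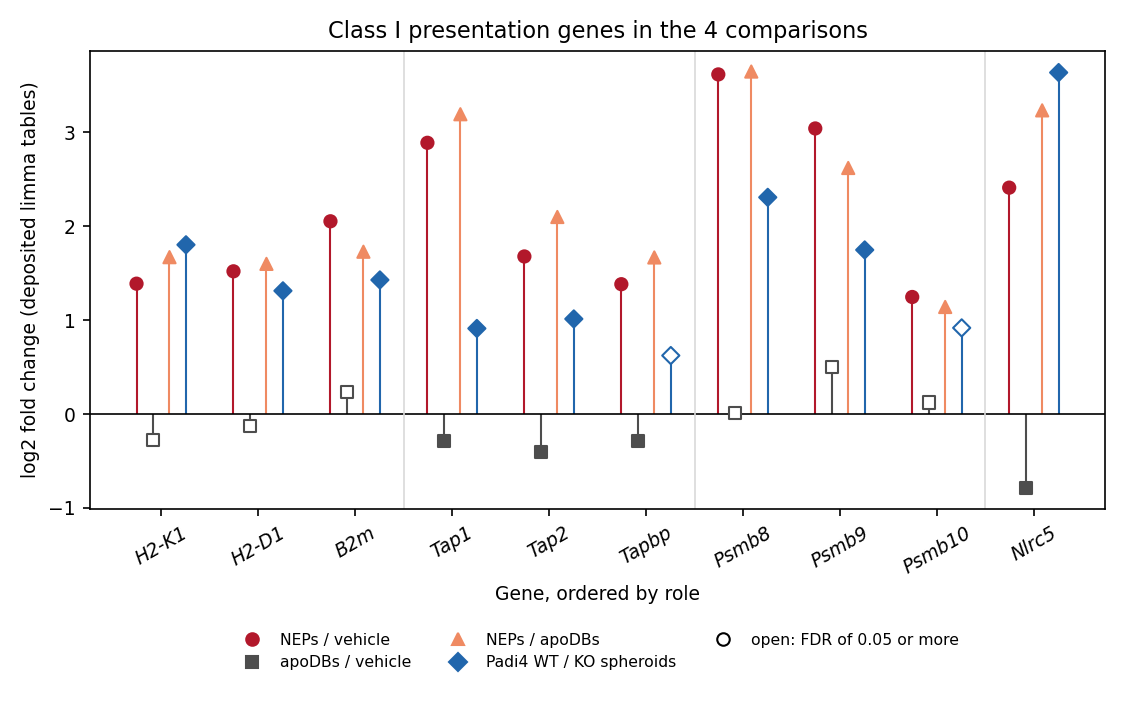
Log2 fold change (y axis) of the 10 genes, ordered by role (x axis), in the 4 deposited comparisons. Filled symbols have an FDR below 0.05 and open symbols do not. With NEPs all 10 lie between 1.14 and 3.65 against vehicle or apoDBs, with apoDBs alone they lie between -0.78 and 0.50, and in WT against KO spheroids between 0.62 and 3.64.

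The second question was whether debris from dying cells without Padi4 had the same effect. None of the 10 genes rose with apoDBs compared to vehicle, whereas 22.9% of the 13307 genes in this table did. By the limma p-value without adjustment, 2 of them (B2m and Psmb9) were under 0.05 on the higher side. Against 22.6% of all genes that fell, 4 of the 10 fell. These were Nlrc5 (log2 fold change -0.78, FDR = 0.000434), Tap2 (-0.40, FDR = 0.0215), Tapbp (-0.29, FDR = 0.0157) and Tap1 (-0.28, FDR = 0.0399). The transactivator therefore fell by 1.72-fold, and the transport genes by 1.22-fold to 1.32-fold. At an FDR below 0.01, 1 of the 4, Nlrc5, remained.

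The remaining 6 genes did not pass the test with apoDBs. H2-K1 had a log2 fold change of -0.28 (FDR = 0.09) and H2-D1 of -0.13 (FDR = 0.371), while B2m had 0.23 (FDR = 0.0526). Psmb9 had 0.50 (FDR = 0.0883), Psmb10 had 0.12 (FDR = 0.463) and Psmb8 had 0.01 (FDR = 0.966). The median of the 10 was -0.20. A p-value that misses the threshold does not show that a gene was unchanged, and intervals could not be computed from these tables.

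Compared directly with apoDBs, NEPs gave higher values of all 10 genes. They rose, as did 23.4% of the 13419 genes in the table, and all were over 2-fold higher, as were 4.81% of all genes. Psmb8 was again the highest at 12.5-fold (FDR = 8.21e-10), followed by Nlrc5 at 9.40-fold (FDR = 4.99e-10) and Tap1 at 9.14-fold (FDR = 1.39e-09). Psmb9 was 6.15-fold (FDR = 7.19e-07) and Tap2 4.28-fold higher (FDR = 4.15e-08). These 5 passed the study's limits, as did 1.99% of all genes on the higher side. Of the 10 genes, 7 had a larger fold here than against vehicle, and B2m, Psmb9 and Psmb10 a smaller one.

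The heavy chains and their partners lay close to each other in this comparison. H2-K1 was 3.18-fold (FDR = 9.68e-08), H2-D1 3.03-fold (FDR = 1.01e-07), B2m 3.31-fold (FDR = 2.77e-08) and Tapbp 3.18-fold higher (FDR = 2.21e-08). Psmb10 was 2.20-fold higher (FDR = 9.77e-06), the smallest of the 10. This comparison shares its samples with the others in 2D culture, so its values are not independent of them. For each gene, the direct log2 fold change differed from the difference of the vehicle comparisons by 0.0017 to 0.0924.

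**Figure D2:**
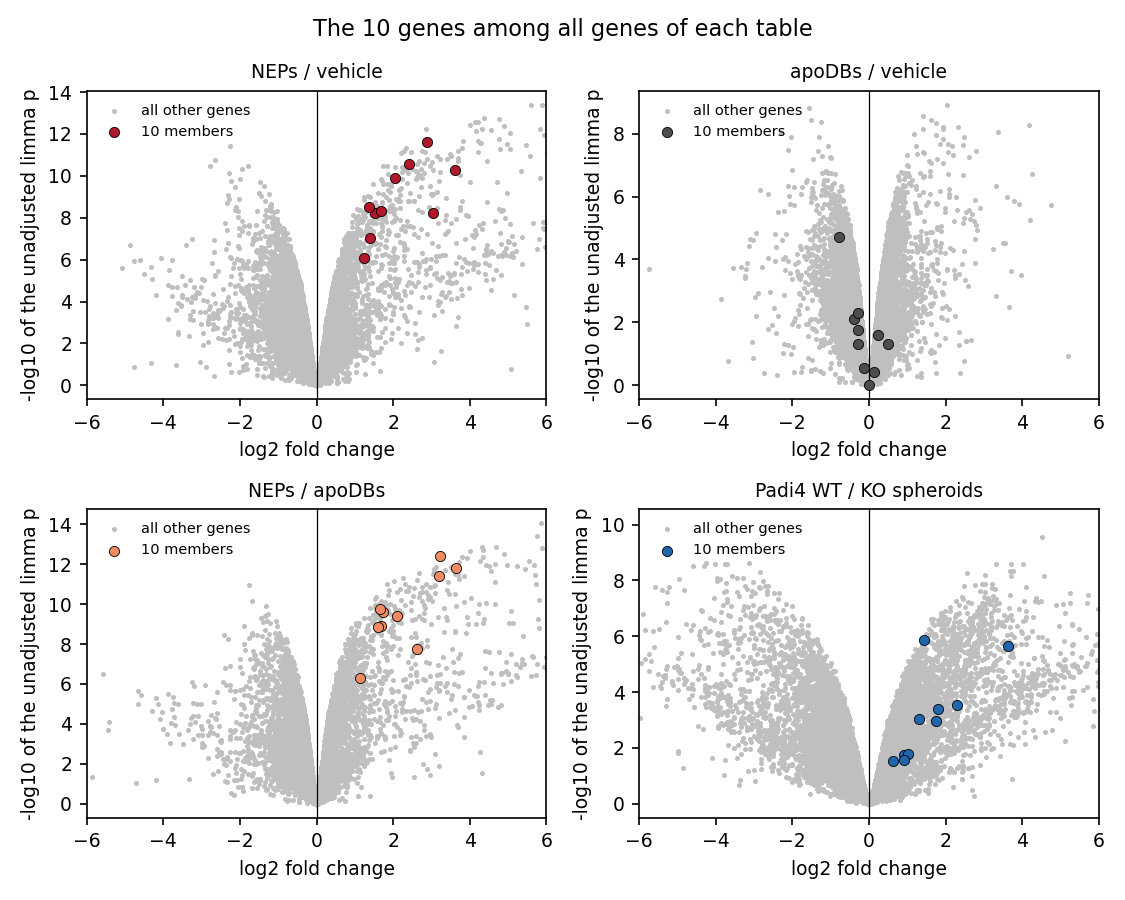
Log2 fold change (x axis) and -log10 of the unadjusted limma p (y axis) of every gene, in grey, and of the 10 genes, in colour, in each comparison. Genes beyond an absolute log2 fold change of 6 are not drawn, which are 38, 7, 27 and 89 genes in reading order. The 10 genes rank 167 to 615 from the highest fold change with NEPs against vehicle, 1382 to 12594 with apoDBs against vehicle, 137 to 566 with NEPs against apoDBs, and 311 to 2896 in spheroids.

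In spheroids the question was whether Padi4 WT cells differ from Padi4 KO cells. No measure of expulsion is given for these samples. Expulsion therefore cannot be told apart from genotype or from other differences between the lines. Of the 10 genes, 8 rose in Padi4 WT compared with Padi4 KO spheroids, where 21.7% of all 14053 genes rose. A fold above 2 with an FDR below 0.05 was seen for 7 of them, and for 13.2% of all genes. The study's limits were passed only by Nlrc5 among the 10, and by 2.54% of all genes on the higher side. The median log2 fold change of the 10 was 1.37, while that of all genes was -0.08.

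Nlrc5 had the largest difference in spheroids, 12.4-fold higher in WT (FDR = 5.39e-05). Psmb8 was 4.95-fold (FDR = 0.00167) and Psmb9 3.36-fold higher (FDR = 0.00468), while Psmb10 was 1.89-fold higher without passing the test (FDR = 0.0546). The inducible subunits exceeded their constitutive counterparts by 1.81, 1.27 and 0.59 on the log2 scale, in the same order. Of the class I molecule, H2-K1 was 3.49-fold (FDR = 0.00221), B2m 2.69-fold (FDR = 4.17e-05) and H2-D1 2.48-fold higher (FDR = 0.00413). Of the transport genes, Tap2 was at 2.02-fold (FDR = 0.0365), Tap1 at 1.88-fold (FDR = 0.0406) and Tapbp at 1.54-fold (FDR = 0.0604).

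The order of the genes was not the same in the spheroids as with NEPs. The log2 fold change was larger with NEPs against vehicle for 8 genes and larger in spheroids for H2-K1 and Nlrc5. Tap1 was 7.40-fold higher with NEPs but 1.88-fold higher in WT spheroids, whereas Nlrc5 was 5.32-fold and 12.4-fold higher. These comparisons use separate samples, and also differ in culture and genotype. The difference between them was not tested for any gene.

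The other genes of peptide loading and trimming were read next. Of 14 listed, 7 rose and 2 fell with NEPs against vehicle, beside 24.3% and 31.1% of all genes, and the median was 0.21. The highest were Erap1, an aminopeptidase that trims peptides in the endoplasmic reticulum (0.73, FDR = 0.000188), and Tapbpl, a relative of tapasin (0.68, FDR = 0.000143). Against apoDBs, 7 rose and 1 fell, beside 23.4% and 31.4% of all genes, with Erap1 at 1.26 (FDR = 4.4e-07). The lowest against vehicle were the peptidases Lnpep (-0.27, FDR = 0.0364) and Ide (-0.25, FDR = 0.00445). In spheroids, 0 of the 14 rose by the FDR from limma p-values, 1 by the p-value without adjustment, and 4 fell. Of all genes there, 21.7% rose and 26.1% fell. The 4 include Tapbpl (-0.75, FDR = 0.00498) and Lnpep (-1.16, FDR = 0.0185).

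The PA28 activator, which caps the immunoproteasome, also rose with NEPs. Psme1 and Psme2, its interferon-inducible chains, rose by 0.80 (FDR = 3.21e-06) and 1.12 (FDR = 2.88e-07) on the log2 scale. The nuclear activators Psme3 (0.00, FDR = 0.998) and Psme4 (0.10, FDR = 0.205) did not pass the test. Of the 5 listed activator and assembly genes, 3 rose with NEPs against vehicle, beside 24.3% of all genes. In spheroids 0 of the 5 passed the FDR from limma p-values and 1 the p-value without adjustment, with Psme1 at 0.38 (FDR = 0.104) and Psme2 at 0.28 (FDR = 0.124).

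The nonclassical class I genes rose with the classical ones when NEPs were added. Of 24 listed, 15 are in the table of NEPs against vehicle, and all 15 rose, beside 24.3% of all genes. Their median log2 fold change was 1.91. The study's limits were passed in NEPs against vehicle by H2-Q6 (2.82, FDR = 2.56e-09), H2-T24 (2.68, FDR = 5.03e-09), H2-Q7 (2.68, FDR = 9.08e-08), Hfe (2.29, FDR = 1.39e-05), H2-T22 (2.22, FDR = 2.02e-08) and H2-Q5 (2.03, FDR = 7.07e-07). H2-Q10 passed them against apoDBs (2.07, FDR = 2.96e-07). The smallest were H2-M3, which presents formylated peptides (0.49, FDR = 0.000927), and H2-Bl (1.21, FDR = 5.06e-05). With apoDBs against vehicle, 3 of 15 rose, near the 22.9% of all genes that rose there. Transcripts of H2-Q and H2-T genes share up to 36.4% of their 50-base words with other genes (H2-Q5), so single folds in this family are uncertain.

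In spheroids the counts of the listed H2-Q and H2-T genes were unlike each other. All 7 listed H2-Q genes rose in WT spheroids, where 21.7% of all genes rose, with log2 fold changes from 1.63 to 3.44. Of the 4 listed H2-T genes, 0 rose by the FDR from limma p-values and 1 by the p-value without adjustment. Of these 4, 1 fell, where 26.1% of all genes fell, and they ranged from -0.72 to 0.40. Outside these groups, H2-T-ps, which was not listed, was at 1.43. H2-Bl, which lies between H2-T22 and H2-T10, was at 1.66 (FDR = 0.0941). The contrast therefore depends in part on which genes were listed. H2-T23, which encodes the ligand Qa-1 of an inhibitory natural killer receptor, was at -0.46 (FDR = 0.0447), and H2-T24 at -0.72 (FDR = 0.0959). With NEPs against vehicle, the 7 H2-Q genes ranged from 1.75 to 2.82 and the 4 H2-T genes from 1.72 to 2.68. The split by group was made after the values were seen, and the difference between the groups was not tested.

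**Figure D3:**
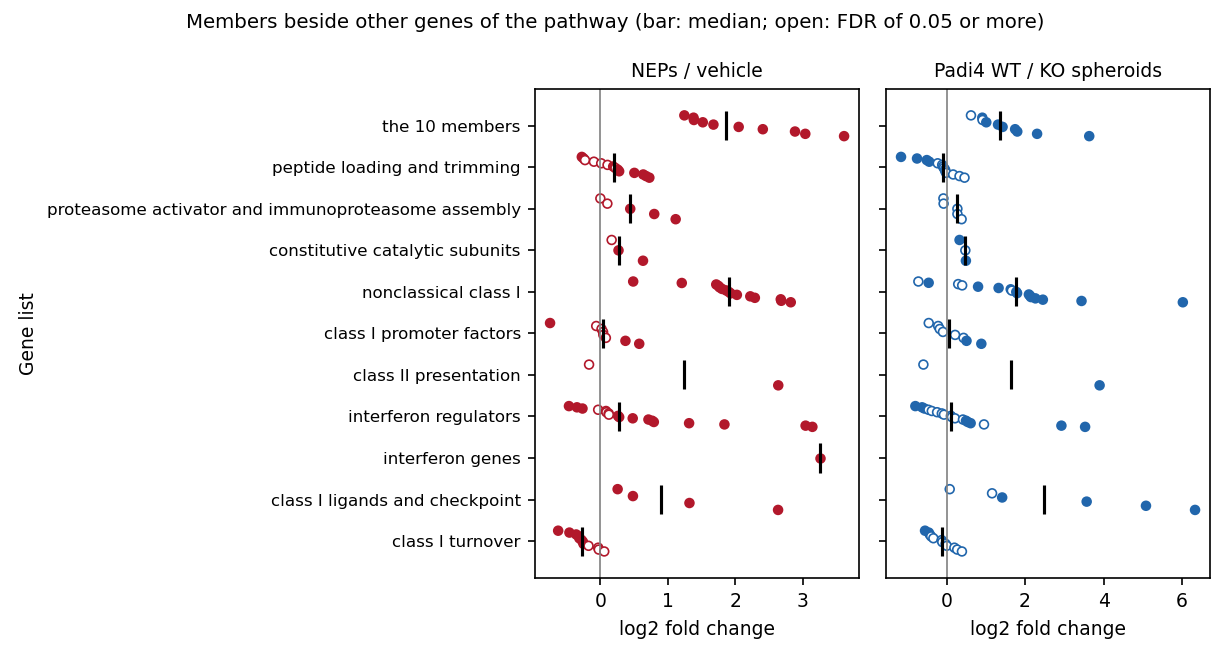
Log2 fold change (x axis) of the 10 genes and of the other listed genes of the pathway (rows) with NEPs against vehicle (left) and in WT against KO spheroids (right). Each point is a gene, open if its FDR was 0.05 or more, and a bar marks the median of its row. The 10 genes and the nonclassical class I genes have medians of 1.87 and 1.91 with NEPs, and the loading genes a median of 0.21.

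The genes around the class I genes on chromosome 17 were read as well. In the stretch from Tapbp to the end of H2-M3 (chr17:33915899-37274484), which was chosen after the values were seen, all 7 of the 10 genes that lie there and all 14 other class I genes rose with NEPs against vehicle. The 14 were the listed nonclassical genes of the stretch and H2-K2, and not every class I locus there. Of the other 100 genes there, 17 rose and 43 fell, beside 24.3% and 31.1% of all genes. Their median log2 fold change was -0.19. These 100 include H2-T-ps, a class I locus by its name (1.62, FDR = 7.06e-06). Picked after their values were seen, some had large changes, such as Cfb of the complement system (6.01, FDR = 2.56e-09) and Tnf (4.33, FDR = 1.36e-06). In spheroids, 6 of 7, 9 of 14 and 19 of 97 genes rose in these sets, beside 21.7% of all genes, and the last set had a median of 0.04.

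**Figure D4:**
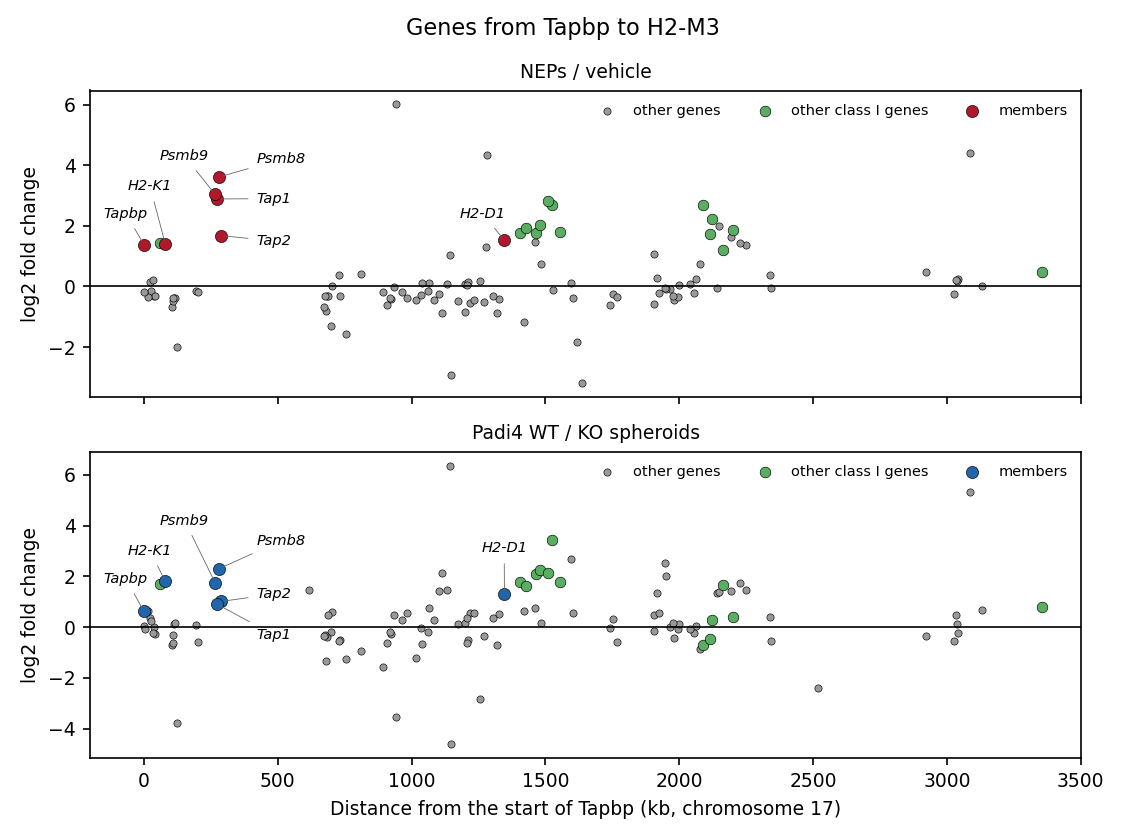
Log2 fold change (y axis) of genes in the MHC by distance in kb from the start of Tapbp on chromosome 17 (x axis), with NEPs against vehicle (top) and in WT against KO spheroids (bottom). The class I genes of the pathway (large coloured points) and the 14 other class I genes counted in the text (green) lie above most other genes (grey) with NEPs. In spheroids 2 of the 4 listed H2-T genes lie below 0. H2-T-ps is among the grey points. The median of the grey points was -0.19 with NEPs and 0.04 in spheroids.

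The factors that bind class I promoters with Nlrc5 moved in either direction. With NEPs against vehicle, 2 of 8 in the table rose and 1 fell, beside 24.3% and 31.1% of all genes. Their median log2 fold change was 0.04. With NEPs against apoDBs 3 rose and 3 fell, beside 23.4% and 31.4% of all genes. With apoDBs against vehicle 2 rose and 2 fell, beside 22.9% and 22.6%. In spheroids 2 rose and 0 fell, beside 21.7% and 26.1%. With NEPs against vehicle, the RFX subunits Rfx5 (0.58, FDR = 7.74e-05) and Rfxap (0.37, FDR = 0.00888) rose, while their partner Rfxank fell (-0.75, FDR = 0.000185). Nfya was at -0.06 (FDR = 0.382). Ciita, the class II counterpart of Nlrc5, is in no table. Of 11 class II genes, only Cd74 and H2-DMa are in the table of NEPs against vehicle. Cd74, the invariant chain, was at 2.64 (FDR = 4.91e-05) and at 3.90 in spheroids (FDR = 0.0127), while H2-DMa was at -0.17 (FDR = 0.341).

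The interferon pathway was read beside the class I genes. Of 18 listed receptors, kinases and transcription factors, 10 rose and 3 fell with NEPs against vehicle, beside 24.3% and 31.1% of all genes. In spheroids 5 of the 18 rose and 3 fell, beside 21.7% and 26.1% of all genes. Irf7, a transcription factor of the interferon response, was at 3.04 (FDR = 1.04e-08), and Stat2, which carries interferon signals to promoters, was at 1.84 (FDR = 7.66e-09) against vehicle and 2.02 (FDR = 2.19e-09) against apoDBs. The lowest were the kinase Tyk2 (-0.47, FDR = 0.000665) and the receptor chain Ifnar1 (-0.35, FDR = 0.000587). In WT spheroids Irf7 was at 0.42 (FDR = 0.519) and Stat2 at 0.11 (FDR = 0.692), while Irf8 rose by 3.53 (FDR = 1.42e-05). Of 6 listed interferon genes, only Ifnb1 is in a table, at 3.27 with NEPs against vehicle (FDR = 0.000251) and 2.80 against apoDBs (FDR = 0.000905). It is not in the tables of apoDBs against vehicle or of spheroids, so it may have passed the filter through the samples with NEPs alone. Its folds and FDRs may therefore rest on very low values without NEPs.

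Ligands that act beside class I were read as well. Cd274, which encodes the checkpoint ligand PD-L1, rose by 2.64 with NEPs against vehicle (FDR = 1.74e-08) and was at 0.08 in spheroids (FDR = 0.847). Of the ligands of the natural killer receptor NKG2D, Raet1e was at 1.32 (FDR = 0.024), Ulbp1 at 0.48 (FDR = 0.00121) and H60b at 0.26 (FDR = 0.0486) with NEPs. In WT spheroids Raet1e was at 6.33 (FDR = 0.000121), Ulbp1 at 3.57 (FDR = 1.72e-05) and H60b at 1.42 (FDR = 0.016). The NKG2D ligands had larger folds in the spheroid table and Cd274 a larger fold with NEPs, and these differences were not tested.

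Genes that degrade class I or its partners were read as a list of 12. Compared with vehicle, 8 of them fell with NEPs, where 31.1% of all genes fell, and 6 with apoDBs, where 22.6% fell. In these comparisons 0 of the 12 rose by the FDR from limma p-values or by the p-value without adjustment. The lowest with NEPs against vehicle were Sel1l, of the endoplasmic reticulum degradation complex (-0.63, FDR = 9.71e-05), and Irgq, an autophagy receptor of class I (-0.46, FDR = 0.000933). The highest were Vcp (0.06, FDR = 0.421) and Derl1 (-0.02, FDR = 0.757). With apoDBs against vehicle, Sel1l was at -0.80 (FDR = 0.000164). With NEPs against apoDBs, 2 of the 12 rose and 3 fell, where 23.4% of all genes rose and 31.4% fell. The 2 that rose were Derl1 (0.24, FDR = 0.00527) and Sel1l (0.18, FDR = 0.0103). In spheroids 0 of the 12 rose by the FDR from limma p-values, 1 by the p-value without adjustment, and 3 fell, where 26.1% of all genes fell.

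Genes with the most similar pattern were sought among genes in all 4 tables, by Euclidean distance between their 4 log2 fold changes and the medians of the 10 genes. The 8 nearest were C1ra, 9530082P21Rik, P4ha2, H2-T-ps, H2-Q2, S100a7a, H2-Q10 and Oasl1, at distances from 0.205 to 0.462. C1ra, a protease of the complement system, was at 1.79, -0.05, 1.86 and 1.27 in NEPs against vehicle, apoDBs against vehicle, NEPs against apoDBs and spheroids. The 3 genes nearest to Nlrc5 were H2-Q7 (0.612), Fendrr (0.618) and Rapsn (0.631). The first 3 comparisons share samples, so the 4 values of a gene are not independent.

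Markers of other states moved beside these changes. With NEPs against vehicle, where 24.3% of all genes rose, 3 of the 10 haematopoietic markers were in the table and rose. These were S100a8 (3.06, FDR = 5.9e-05), S100a9 (1.58, FDR = 0.00165) and Cd68 (1.06, FDR = 0.000164). With NEPs against apoDBs, S100a8 was at 1.46 (FDR = 2.71e-05), Cd68 at 0.76 (FDR = 0.000642) and S100a9 at 0.01 (FDR = 0.979), and in WT spheroids Cd68 was at 1.71 (FDR = 0.00303). With apoDBs against vehicle, where no class I gene of the 10 rose, S100a8 was at 1.72 (FDR = 0.00661) and S100a9 at 1.70 (FDR = 0.00179). Of the 5 epithelial markers, Epcam (-0.40, FDR = 0.000403), Krt14 (-0.34, FDR = 0.0217) and Krt18 (-0.26, FDR = 0.0152) fell with NEPs against vehicle, where 31.1% of all genes fell. Krt8 was at -0.14 there (FDR = 0.197). Against apoDBs, Epcam was at -0.80 (FDR = 3.07e-07), Krt8 at -0.81 (FDR = 6.88e-06) and Krt18 at -0.76 (FDR = 2.33e-06), while Cdh1 was at 0.27 (FDR = 0.00276). With apoDBs against vehicle, Epcam (0.44, FDR = 0.000922), Krt8 (0.69, FDR = 0.00155) and Krt18 (0.50, FDR = 0.00223) rose. Krt14 fell there (-0.30, FDR = 0.0421), and of all genes 22.9% rose and 22.6% fell. The lower values of Epcam, Krt8 and Krt18 against apoDBs thus include their rise with apoDBs. In spheroids all 5 epithelial markers passed the test, beside 47.8% of all genes. Cdh1 and Epcam were at -3.12 (FDR = 3.37e-06) and -2.84 (FDR = 4.04e-06) in WT against KO spheroids, where Krt14 was at -2.21 (FDR = 0.00105), Krt8 at 1.23 (FDR = 0.000495) and Krt18 at 0.90 (FDR = 0.00328). In the same table the stromal genes Col1a1 and Pdgfrb were at -4.19 (FDR = 0.000186) and 4.56 (FDR = 0.000456). The part of these shifts in the class I values was not tested. In bulk RNA, fewer cells of a type and less RNA per cell cannot be told apart.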

How the data were processed

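RNA-seq of 15 samples of 4T1 cells in 5 groups of 3 was read from the authors' 4 deposited limma tables, one for each comparison. The fold changes deposited by the authors are a signed score on a linear scale, where a decrease appears as the negative inverse of its ratio, and they were turned into log2 values. Each p-value deposited by the authors is from limma, unadjusted. The paper names the CCBR Pipeliner, and the submitters' processing notes name limma and mm9. The aligner, the counter, the filter on low expression and the normalization are not given in the sources used here. Each table holds its own set of genes, from 13307 to 14053. In 1 table, 19 symbols appear as dates, which is why Ensembl identifiers served to join genes. Benjamini-Hochberg adjustment covered every gene in a table.

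The 10 genes and the 13 lists of 129 other genes were chosen with earlier results of these data known. Other genes named are the 2 highest and 2 lowest of a list with NEPs against vehicle, those past the study's limits, the constitutive subunits, the markers and the nearest genes, except where the text says that values were seen first. The individual results of some listed genes are not reported here. Shared 50-base words were counted in GENCODE M21 transcripts. Alternatives were other limits, the Benjamini-Yekutieli adjustment, only genes in all 4 tables, centring, joining by symbol, the mean, and leaving out the heavy chains. No model was refitted, because the analysis had no values per sample, and the depth is unknown. Python 3.11.15 was used with numpy 2.4.6, pandas 2.3.3, scipy 1.17.1 and matplotlib 3.10.9, and the code was tested on simulated data.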

Additional observations from a re-analysis of the deposited data

How the results depend on the processing

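The values of single samples were not analysed here, so replicates could not be left out, and the depth, which limits small changes, is unknown. No paired analysis was possible because the tables hold comparisons and not samples. At an FDR below 0.05, the counts of the 10 genes kept their side with NEPs and in spheroids under each alternative within a factor of 1.5. With apoDBs against vehicle, the 4 genes that fell were reduced to 1 at an FDR below 0.01 and to 1 with the Benjamini-Yekutieli adjustment. By the study's limits, 5 genes passed with NEPs against vehicle, and 10 with an absolute log2 fold change above 1. With NEPs against apoDBs these were 5, and 10 with a limit of 1 or 9 with a limit of 1.5. In spheroids 1 gene passed, and 2 passed with a log2 limit of 1, with an FDR below 0.01 or with an FDR below 0.05. For NEPs against vehicle, the median of 1.87 (log2) was 2.12 as a mean and 2.23 without H2-K1 and H2-D1. With NEPs against apoDBs, 1.91 became 2.26 and 2.36, and in spheroids 1.37 became 1.57 and 1.22. Of the single genes, Psmb8 with apoDBs against vehicle changed sign when centred on the median of all genes, from 0.0092 to -0.00083, and the other 39 kept their direction. These shifts follow from the limits and summaries themselves.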
